A study of Caenorhabditis elegans with 12 samples.

Results

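The nuclear genes of oxidative phosphorylation (OXPHOS) other than those of complex IV were followed in 12 RNA-seq libraries of *Caenorhabditis elegans*. They are the genes under the OXPHOS heading of the study's heat map, matched by gene identifier, without the 12 genes of the mitochondrial genome and without the 11 *cox-* genes. That left 88 of the 111 genes under the heading, out of 46920 loci in the count table. By subunit, 33 belong to complex I, 5 to complex II, 9 to complex III, 16 to complex V and 21 to the vacuolar ATPase, which the heading lists with the mitochondrial complexes. The inorganic pyrophosphatase *pyp-1* and the phosphatase gene *lhpp-1* are part of no complex, and R07E4.3 and C14B9.10 were not assigned to one.

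The animals were whole worms at the L4 stage, grown from hatch at 20°C. They were wild type (WT, strain N2) or *lin-40*(*yth27*), a line with a point mutation in the gene for LIN-40, an MTA subunit of the nucleosome remodeling and deacetylase complex NuRD. Either genotype was raised either on bacteria that carried an empty vector (EV, the control) or on bacteria for RNAi against *cco-1*, written EV+*cco-1* in the methods with no ratio given. *cco-1*, listed as *cox-5B*, codes for a subunit of complex IV. Each of the 4 groups had 3 libraries of poly(A) RNA. The paper calls its data in general biological replicates, but nothing in the labels says that these libraries came from separate cultures, so the p-values measure the spread between them, which may be technical.

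Complex I takes electrons from NADH and complex II from succinate, both pass them to ubiquinone, and complex III hands them on to cytochrome c. Complex V, the ATP synthase, uses the proton gradient built up along the way to make ATP. The vacuolar ATPase is built on a similar rotary plan, a soluble V1 sector and a membrane V0 sector, but it runs the other way and spends ATP to acidify lysosomes, other organelles and, in some cells, the outside. In worms, mutations in *mev-1*, *isp-1*, *nuo-6* and *clk-1* and RNAi against many subunits are well-known ways to disturb respiration.

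The library totals were 18553449 to 22538076 expected counts. Levels are given as counts scaled to a common library size (CPM) after scaling by TMM, which sets the libraries to a common composition. The RNAi target *cox-5B* fell upon *cco-1* RNAi in WT, with a log2 fold change of −1.63 (adjusted p = 3.76e-04, edgeR with Benjamini-Hochberg adjustment, BH) and in *lin-40*(*yth27*), with −0.92 (adjusted p = 0.0187, edgeR, BH). Some libraries stood apart. Summed over 36 spermatogenic genes, WT EV replicate 1 and WT *cco-1* replicate 1 held 452 and 450.0 CPM, against 1447 to 4034 CPM in the other 10 libraries. In *lin-40*(*yth27*) under *cco-1* RNAi, replicate 3 had the lowest TMM factor, 0.796 against 0.884 to 1.102 elsewhere, which raises its CPM. Results that rest on these libraries are also given without them.

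The members spanned a wide range of levels. Per kilobase of exon, a scale on which genes can be compared, the highest was Y82E9BR.3, the c subunit that forms the membrane rotor of complex V, at 4798 CPM per kilobase over all libraries, followed by the catalytic α and β subunits *atp-1* and *atp-2* at 2635 and 2629. Complex V also had the highest median level, 966 CPM per kilobase, against 396 in the vacuolar ATPase, 359 in complex III, 331 in complex II and 235.4 in complex I. Within complex I *ndub-5*, an accessory membrane subunit, was highest at 481. The lowest tested members were *lhpp-1* at 1.67 and 3 paralogs of the vacuolar ATPase, *spe-5*, *vha-18* and *vha-7*, at 5.70, 6.08 and 6.79 CPM per kilobase. ZC262.5, an ε-like member of complex V, was left out of all tests, since it held 0 to 5.38 expected counts per library, a level of 0.888 CPM per kilobase. Its exons have the same length, 165 bases, as those of R05D3.6, another ε-like member, which was tested, and whether the pair share reads was not tested. The other 87 members passed the filter on low counts, among 14867 loci tested.

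**Figure D1:**
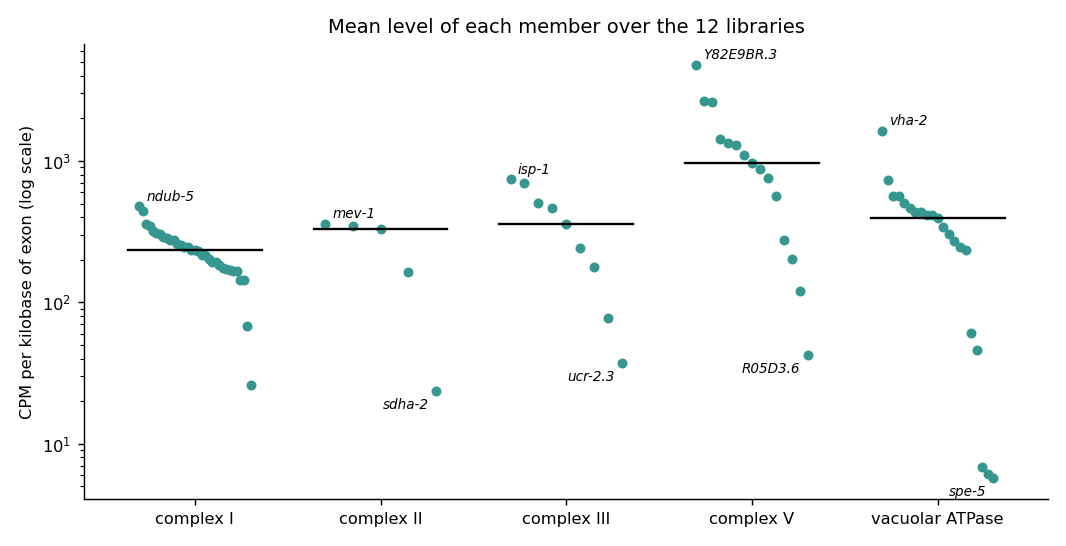
Mean level of each member over the 12 libraries, in CPM per kilobase of exon on a log axis, by class; each point is a gene, ordered from high to low, and the bar is the median of the class. Complex V holds the gene with the highest level, Y82E9BR.3 at 4798, and the vacuolar ATPase 3 genes at 5.70 to 6.79.

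As a share of all counts, which needs no scaling, the members together took 4.44%, 4.17% and 4.32% in WT on EV and 4.67%, 4.15% and 4.39% in WT under *cco-1* RNAi. In *lin-40*(*yth27*) they took 3.86%, 3.89% and 3.90% on EV, and 4.33%, 4.17% and 4.39% under *cco-1* RNAi. All 3 *lin-40*(*yth27*) libraries on EV lay below all 9 others, while the remaining groups overlapped. Over the tested members, the median deviation of log2 CPM from the mean of the 12 libraries was 0.16, 0.04 and 0.11 in WT on EV, 0.15, −0.14 and −0.02 in WT under *cco-1* RNAi, −0.19, −0.16 and −0.20 in *lin-40*(*yth27*) on EV, and −0.07, 0.00 and 0.33 in *lin-40*(*yth27*) under *cco-1* RNAi. The last value belongs to the library with the lowest TMM factor, whose share of counts, 4.39%, lay within the range of WT. In these bulk samples, fewer cells of a type and less RNA per cell cannot be told apart.

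**Figure D2:**
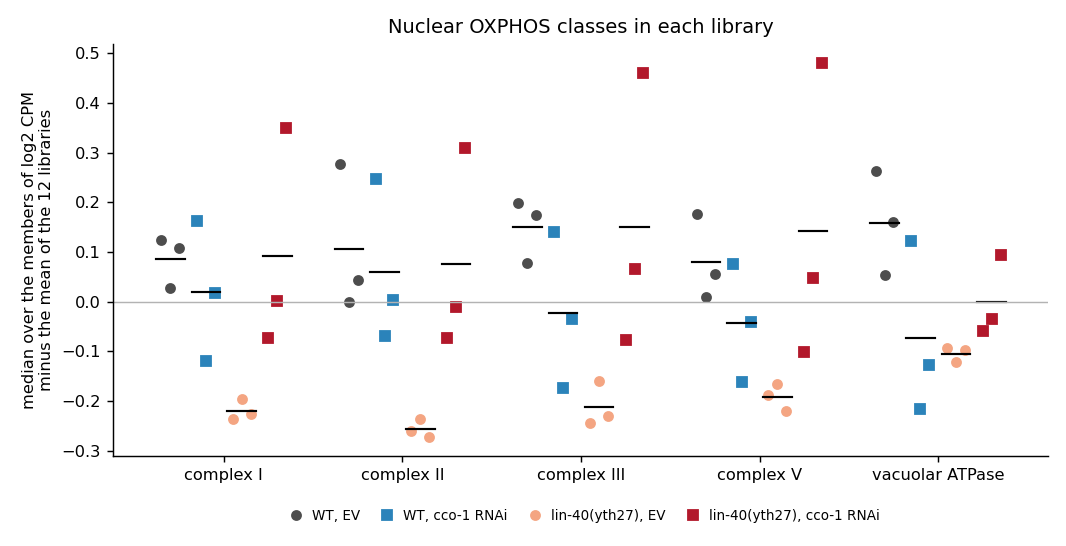
Median over the members of each class of the log2 CPM in a library minus the mean of the 12 libraries, for complexes I, II, III and V and the vacuolar ATPase; each point is a library, and the black bar is the mean of the 3 libraries of a group. The *lin-40*(*yth27*) libraries on EV have the lowest group mean in every class, and *lin-40*(*yth27*) *cco-1* replicate 3 is the highest of its group in all classes, at 0.09 in the vacuolar ATPase and 0.31 to 0.48 in the others.

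In WT, the comparison of *cco-1* RNAi with EV asks how the rest of the chain responds when *cco-1*, of complex IV, is targeted by RNAi. No member passed an adjusted p of 0.05 by edgeR or by DESeq2, whereas 6.25% of all tested loci passed by edgeR and 9.79% by DESeq2. The lowest adjusted p among the members was 0.118. The median log2 fold change was −0.12, against 0.06 over all loci, with values below 0 for 76 of the 87 members, against 44% of all loci. The sign of that median rests on the scaling: with library totals, 47 members lay above 0 and 40 below, since all loci moved up together, and relative to all loci the median was −0.18 under either scaling. At an unadjusted p under 0.05, 5 members were lower and 0 higher by edgeR, against 11.7% and 9.11% of all loci, and DESeq2 gave 8 lower, against 11.8% of all loci. The EV and *cco-1* libraries did not overlap for 14 members, all lower under *cco-1* RNAi, against 13.3% of all loci that were lower in this way. With both WT libraries that were low in sperm transcripts left out, the median was −0.16, 77 values lay below 0, and 9 members were lower at an unadjusted p under 0.05, 8 of them in the vacuolar ATPase, against 10.8% of all loci. Without WT *cco-1* replicate 1 alone, 13 members were lower at an unadjusted p under 0.05, against 12.8% of all loci. These counts come from fits without a block, though the WT libraries were taken to be paired by number. With the title number as a block the median was −0.12 and 1 member was called, against 8.40% of all loci. Counts of members at an unadjusted p with that block are not given.

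The gene with the largest difference in WT was *ucr-2.3* (WBGene00020757, chromosome III, 879860 to 881458 in the WBcel235 annotation), the least abundant of 3 genes for core protein 2 of complex III. It measured 54.6, 58.1 and 61.8 CPM on EV and 31.9, 44.2 and 48.9 CPM under *cco-1* RNAi, so that the groups did not overlap. The log2 fold change was −0.48 with a standard error (SE) of 0.17 (adjusted p = 0.118, edgeR, BH). The lowest level, 31.9 CPM, was that of WT *cco-1* replicate 1, which was low in sperm transcripts. Without both WT libraries of that kind, the levels were 58.1 and 61.8 CPM on EV and 44.2 and 48.9 CPM under *cco-1* RNAi. WT libraries with the same number deviated together, and with the number as a block the value was −0.50 and passed (adjusted p = 0.0407, edgeR, BH), which made *ucr-2.3* the 1 member called in WT with the block, against 8.40% of all loci. In *lin-40*(*yth27*) it measured 44.2, 55.6 and 57.1 CPM on EV and 45.6, 46.7 and 57.7 CPM under *cco-1* RNAi, groups that overlapped, with a log2 fold change of −0.07. The difference between the genotypes was 0.41 with an unadjusted p of 0.100 by edgeR.

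The other 4 members with an unadjusted p under 0.05 in WT all belong to the vacuolar ATPase. For *vha-4*, the c″ ring subunit of V0, the libraries gave 483, 440 and 441 CPM on EV and 411, 328 and 349 CPM under *cco-1* RNAi (log2 fold change −0.33, adjusted p = 0.181, edgeR, BH). *vha-8*, the E subunit of the V1 stator stalk, gave 997, 876 and 942 CPM against 885, 687 and 723 CPM, where one RNAi library lay above the lowest EV library (log2 fold change −0.29). *unc-32*, a V0 a subunit with a known role in neurons, gave 177, 177 and 188 CPM against 151, 156 and 159 CPM without overlap (log2 fold change −0.22). *vha-19*, the accessory subunit related to Ac45, had a log2 fold change of −0.35. Across the 21 genes of the vacuolar ATPase the median was −0.22 with 17 values below 0, and the V1 and V0 sectors had like medians of −0.23 and −0.21.

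In the mitochondrial complexes the WT medians were closer to 0. Complex I had a median of −0.07 with 28 of 33 values below 0 and 0 members at an unadjusted p under 0.05. Complex II had −0.07 with all 5 below 0, complex III −0.16 with all 9 below 0 and complex V −0.13 with 14 of 15 below 0. The 8 genes for core subunits of complex I had a median of −0.04 and the 25 supernumerary subunits −0.08. *ndab-1*, a gene for the acyl carrier protein of complex I, gave 90.0, 91.4 and 103 CPM on EV and 83.2, 77.7 and 82.8 CPM under *cco-1* RNAi, without overlap (log2 fold change −0.22, unadjusted p = 0.14, edgeR). *asb-1*, the minor gene for the b subunit of complex V, gave 138, 120 and 140 CPM against 106, 111 and 123 CPM (log2 fold change −0.23, unadjusted p = 0.0701, edgeR), with overlap. Whether the vacuolar ATPase differed from the mitochondrial complexes in WT was not tested.

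In *lin-40*(*yth27*), the same comparison gave values on the other side of 0. No member was called by edgeR or by DESeq2, and 1.16% of all loci were by edgeR and 2.66% by DESeq2. The median log2 fold change was 0.30, against −0.03 over all loci, with 78 of 87 values above 0, against 45.8% of all loci. With library totals the median was 0.14, and relative to all loci 0.31. At an unadjusted p under 0.05, 40 members were higher and 0 lower, against 7.24% and 4.63% of all loci, and DESeq2 gave 44 higher, against 7.92%. The libraries did not overlap for 47 members that were higher and for 2 that were lower, *vha-7* and *vha-11*, against 11.1% and 9.71% of all loci. *lin-40*(*yth27*) *cco-1* replicate 3 carried much of the size of this difference. Without it, 77 values lay above 0, but the median was 0.16 and 1 member was higher at an unadjusted p under 0.05, against 4.38% of all loci.

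Most of the members that lay higher belong to the mitochondrial complexes. Of their 62 tested members, 60 were above 0, 37 had an unadjusted p under 0.05 and 40 did not overlap. Complex I had a median of 0.32 with 32 of 33 values above 0, complex II 0.37 with 5 of 5, complex III 0.37 with 8 of 9 and complex V 0.35 with 15 of 15. In complex III the value below 0 was that of the minor paralog *ucr-2.3* (−0.07). The vacuolar ATPase had a median of 0.09 with 15 of 21 values above 0, and its median was −0.05 with library totals, where 6 values lay above 0. Without replicate 3, the medians were 0.20 for the 62 mitochondrial genes and 0.06 for the vacuolar ATPase. The members are short, with a median exon length of 853 bases against 1366 over the 14776 tested loci with a length. When the trend of each library's levels with gene length was removed, the median of all members relative to all loci was 0.18 in place of 0.34, and 7 of the 62 mitochondrial genes reached an unadjusted p under 0.05 in place of 37, against 5.87% of all loci that were higher in this way.

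**Figure D3:**
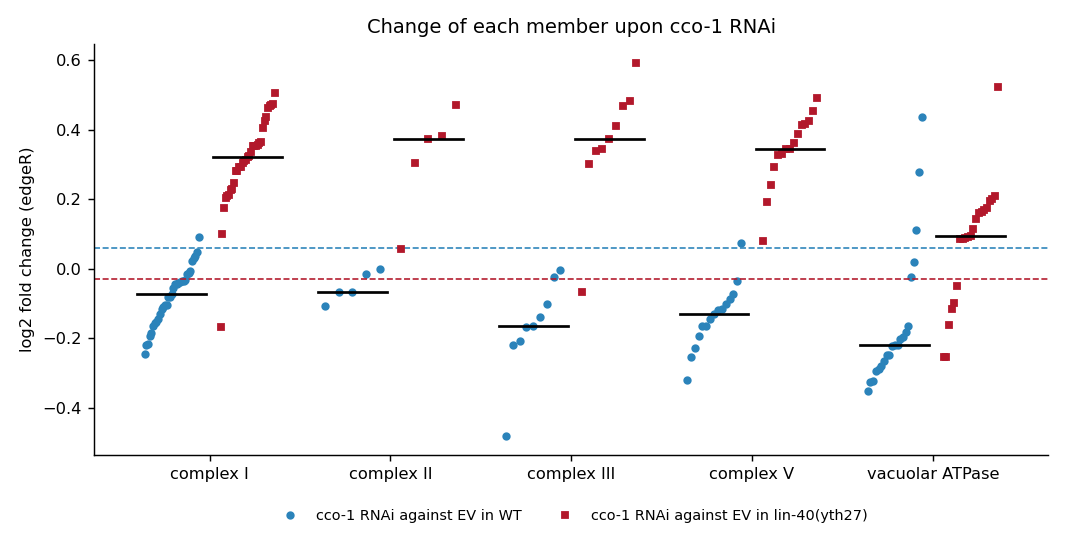
Log2 fold change upon *cco-1* RNAi of each tested member in WT (blue) and in *lin-40*(*yth27*) (red), by class, from edgeR with TMM scaling; points are genes ordered by value, black bars are medians and the dashed lines are the medians of all 14867 loci, 0.06 in WT and −0.03 in *lin-40*(*yth27*). Most mitochondrial members lie below 0 in WT and above 0 in *lin-40*(*yth27*), and the WT values centre near 0.02 when library totals replace TMM.

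The member with the lowest p here was *ndab-2*, one of 2 genes for the acyl carrier protein of complex I, which also serves mitochondrial fatty acid synthesis. It gave 116, 121 and 114 CPM on EV and 139, 151 and 208 CPM under *cco-1* RNAi. All RNAi libraries were higher than all EV libraries, and the log2 fold change was 0.51 with an SE of 0.14 (adjusted p = 0.163, edgeR, BH). In WT the same gene gave 132, 132 and 138 CPM on EV and 152, 125 and 139 CPM under *cco-1* RNAi, groups that overlapped. The other acyl carrier gene, *ndab-1*, gave 66.0, 83.8 and 73.9 CPM on EV and 78.7, 75.4 and 105 CPM under *cco-1* RNAi in *lin-40*(*yth27*), with overlap (log2 fold change 0.21). *nduc-2*, an accessory subunit of the membrane arm whose estimated counts are not whole in any of the 12 libraries, gave 73.9, 72.1 and 82.3 CPM against 93.1, 88.9 and 133 CPM without overlap (log2 fold change 0.46, unadjusted p = 0.0116, edgeR). Estimated counts were also not whole in 12 libraries for *vha-4* and R05D3.6. The same held in 11 libraries for *nuo-5*, T27E9.2, ZC262.5, *vha-1*, *vha-2* and *vha-13*, in 7 for *atp-1* and in 4 for *nuo-1*.

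In complex II, *mev-1*, the SDHC membrane anchor in which a classical mutation shortens life, gave 206, 216 and 212 CPM on EV and 246, 258 and 375 CPM under *cco-1* RNAi in *lin-40*(*yth27*). The groups did not overlap, and replicate 3 stood well above the other RNAi libraries (log2 fold change 0.47, adjusted p = 0.275, edgeR, BH). *sdhb-1*, the iron-sulfur subunit, gave 304, 312 and 304 CPM against 352, 361 and 477 CPM, also without overlap (log2 fold change 0.37). Of the 2 flavoprotein genes, *sdha-1* gave 352, 303 and 288 CPM against 311, 441 and 476 CPM with overlap, and *sdha-2*, which made up 12.1% to 14.8% of the pair in the group means, had a log2 fold change of 0.06.

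In complex III, the more abundant core 2 genes lay higher under *cco-1* RNAi in *lin-40*(*yth27*). *ucr-2.2* gave 210, 206 and 207 CPM on EV and 238, 264 and 370 CPM under *cco-1* RNAi (log2 fold change 0.48, unadjusted p = 0.0168, edgeR). *ucr-2.1* gave 449, 403 and 395 CPM against 464, 545 and 715 CPM (log2 fold change 0.47). Neither pair of groups overlapped, in contrast to *ucr-2.3* above. *isp-1*, the Rieske iron-sulfur protein and the most abundant member of complex III per kilobase, gave 674, 614 and 618 CPM against 711, 758 and 997 CPM without overlap (log2 fold change 0.37).

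Complex V held the most RNA. Y82E9BR.3 (chromosome III, 1419196 to 1419869) gave 2299, 2555 and 2454 CPM on EV and 2856, 3007 and 4401 CPM under *cco-1* RNAi in *lin-40*(*yth27*), without overlap (log2 fold change 0.49, unadjusted p = 0.0143, edgeR). In WT it gave 3191, 2773 and 2882 CPM against 3075, 2556 and 2786 CPM with overlap (log2 fold change −0.07). Y69A2AR.18, the γ subunit that forms the central shaft, gave 1247, 1236 and 1205 CPM against 1431, 1558 and 2063 CPM in *lin-40*(*yth27*) without overlap (log2 fold change 0.45). The F1 genes, catalytic head and shaft, had a median of 0.41 over 6 tested genes and the genes of the membrane part and stalks 0.34 over 9.

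The vacuolar ATPase had 1 member at an unadjusted p under 0.05 in *lin-40*(*yth27*), *vha-6*, the V0 a subunit of the apical membrane of the intestine. It gave 1054, 849 and 840 CPM on EV and 1113, 1400 and 1429 CPM under *cco-1* RNAi without overlap (log2 fold change 0.52, adjusted p = 0.346, edgeR, BH). In WT it gave 1438, 906 and 992 CPM against 1701, 1216 and 1128 CPM, which overlapped (log2 fold change 0.28, unadjusted p = 0.213, edgeR). *vha-6* was thus on the same side of 0 in both genotypes, and the difference between them was 0.25 with an unadjusted p of 0.43 by edgeR. *vha-11*, the C subunit of V1, gave 384, 370 and 362 CPM on EV and 362, 340 and 329 CPM under *cco-1* RNAi, groups that all but touched (log2 fold change −0.11). *vha-7*, a V0 a subunit known from the hypodermis and of low level, gave 26.7, 27.7 and 27.4 CPM against 25.7, 24.0 and 23.4 CPM without overlap (log2 fold change −0.16).

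**Figure D4:**
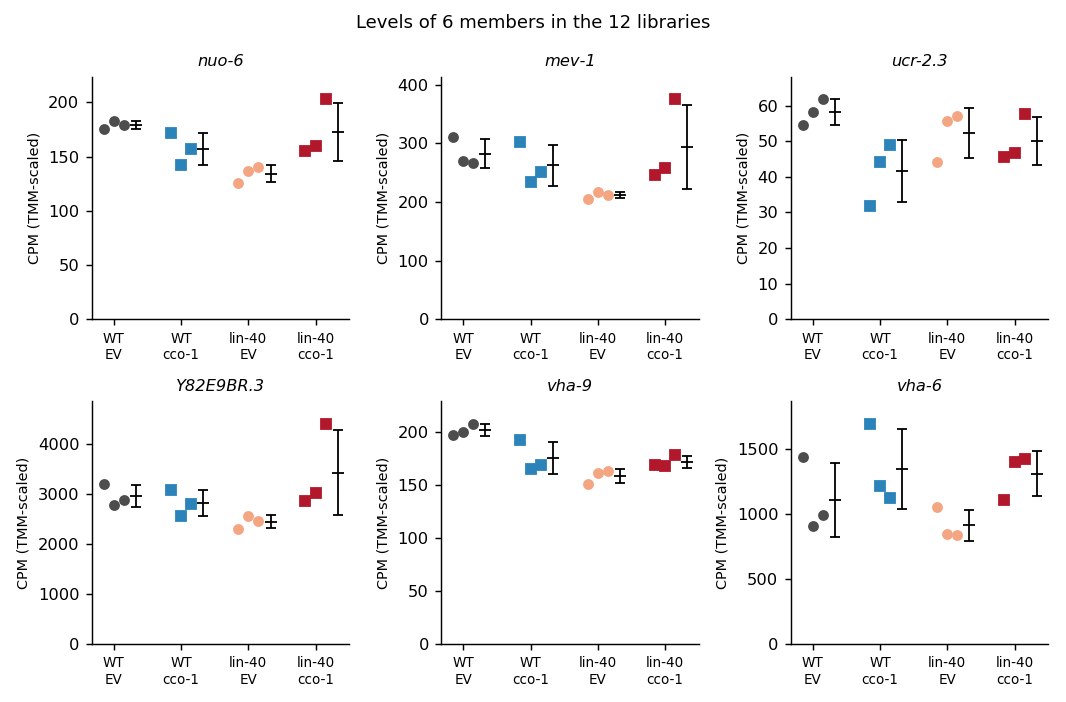
CPM after TMM scaling of 6 members in the 12 libraries, from complexes I (*nuo-6*), II (*mev-1*), III (*ucr-2.3*) and V (Y82E9BR.3) and the vacuolar ATPase (*vha-9*, *vha-6*); each point is a library, and the bar with whiskers is the mean and SD of 3. *nuo-6* and *vha-9* on EV lie lower in all *lin-40*(*yth27*) libraries than in all WT libraries, at 126 to 141 against 175 to 182 CPM and at 151 to 163 against 197 to 208 CPM.

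The difference between the genotypes in the change upon *cco-1* RNAi was tested as an interaction. It called no locus at all by edgeR, and by DESeq2 58 loci, 0.390%, with no member among them. The RNAi target *cox-5B* itself fell less in *lin-40*(*yth27*), with a difference of 0.71 (unadjusted p = 0.00768, adjusted p = 0.394, edgeR, BH). The part of this unequal fall of the target in the members' values was not tested. At an unadjusted p under 0.05, 28 members were above 0 by edgeR, against 6.84% of all loci, none was below 0, against 4.51%, and DESeq2 gave 40 above 0, against 7.82%. The median was 0.42, against −0.04 over all loci, and 83 of 87 values lay above 0, against 47.4% of all loci. With library totals the median was 0.11, which relative to all loci was 0.42. At an unadjusted p under 0.05, 1 mitochondrial member was then above 0, against 1.37% of all loci. In the same fit 1 of the vacuolar ATPase was below 0, against 8.8% of all loci. With the trend in gene length removed, the median was 0.40, and the mitochondrial members at an unadjusted p under 0.05 numbered 2 in place of 22. Of all loci, 6.75% were above 0 and 2.21% below 0 in this way. Without *lin-40*(*yth27*) *cco-1* replicate 3 the median was 0.28 and 3 members had an unadjusted p under 0.05 and lay above 0, against 3.83% of all loci. Leaving out both WT libraries low in sperm transcripts gave a median of 0.47. There 17 of 62 mitochondrial members and 11 of 21 of the vacuolar ATPase were above 0 at an unadjusted p under 0.05, against 6.86% of all loci. In the reported fit, the lowest p was that of *nuo-6*, the NDUFB4 subunit of complex I in which a known mutation lengthens life. It gave 175, 182 and 179 CPM on EV and 172, 143 and 157 CPM under *cco-1* RNAi in WT. In *lin-40*(*yth27*) it gave 126, 136 and 141 CPM on EV and 155, 160 and 203 CPM under *cco-1* RNAi. *nuo-6* was thus lower in all WT libraries under *cco-1* RNAi and higher in all *lin-40*(*yth27*) libraries, and the difference was 0.55 with an SE of 0.17 (adjusted p = 0.394, edgeR, BH).

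By class, the interaction had a median of 0.39 in complex I, 0.44 in complex II, 0.47 in complex III, 0.46 in complex V and 0.34 in the vacuolar ATPase. All 62 mitochondrial members and 18 of the 21 genes of the vacuolar ATPase were above 0. *ndua-8*, an accessory subunit of complex I, gave 188, 169 and 188 CPM on EV and 178, 143 and 168 CPM under *cco-1* RNAi in WT, with overlap. In *lin-40*(*yth27*) it gave 147, 145 and 142 CPM against 162, 175 and 211 CPM without overlap, for a difference of 0.49 (unadjusted p = 0.0158, edgeR). F58F12.1, the δ subunit of complex V, had the lowest p of its complex, with 599, 564 and 562 CPM against 569, 448 and 493 CPM in WT and 480, 493 and 491 CPM against 532, 562 and 859 CPM in *lin-40*(*yth27*). For *vha-4*, the difference was 0.49 (unadjusted p = 0.0216, edgeR), with 362, 378 and 397 CPM on EV and 372, 411 and 494 CPM under *cco-1* RNAi in *lin-40*(*yth27*), which overlapped. *vha-14*, the D subunit of the V1 shaft, had a difference of 0.42 (unadjusted p = 0.031, edgeR).

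The genotypes were also compared on each kind of bacteria. These comparisons share their libraries with those above, so their values stand side by side and are not independent. On EV, edgeR called none of the members and 0.377% of all loci, with 0.153 as the lowest adjusted p. DESeq2 called *vha-9* (adjusted p = 0.00447, DESeq2, BH) and *nuo-6* (adjusted p = 0.0382, DESeq2, BH), against 3.07% of all loci. EV libraries of the same title number, though not of the same short-name number, also deviated together across the genotypes. With the title number as a block edgeR called 9 loci in place of 56 and none of the members, with 0.316 as their lowest adjusted p. The median log2 fold change was −0.29, against 0.03 over all loci, and 84 of 87 values lay below 0, against 46.3% of all loci. The exceptions were *vha-18*, *vha-7* and *lhpp-1*, all of low level. At an unadjusted p under 0.05, 27 members were lower and 0 higher, against 7.43% and 7.53% of all loci, and DESeq2 gave 50 lower, against 9.72%. For 64 members all *lin-40*(*yth27*) libraries lay below all WT libraries, against 13.1% of all loci. With both WT libraries that were low in sperm transcripts left out, the median was −0.24, 83 values lay below 0 and 10 members were lower at an unadjusted p under 0.05, against 5.91% of all loci. In the same comparison all 5 genes of a hypodermis and cuticle list and all 6 of an intestine list lay below 0, with medians of −0.68 and −0.27, and their summed levels did not overlap, at 3007 to 3748 CPM in WT against 2636 to 2715 CPM in *lin-40*(*yth27*) and at 3810 to 5378 against 3072 to 3638 CPM. Other marker lists differed. On EV, 5 of 7 neuronal genes and all 33 tested spermatogenic genes lay above 0 in *lin-40*(*yth27*) against WT, with medians of 0.20 and 0.47. Of 8 germline genes 4 lay above 0 and 4 below, and of 6 body wall muscle genes 5 lay below 0 (median −0.15). The part of any of these lists in the members' values was not tested.

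On EV, the V1 subunit F, *vha-9* (chromosome II, 10303050 to 10303713), gave 197, 200 and 208 CPM in WT and 151, 161 and 163 CPM in *lin-40*(*yth27*). The groups were well apart, with a log2 fold change of −0.35 and an SE of 0.10 (adjusted p = 0.153, edgeR, BH). On *cco-1* RNAi the genotypes overlapped at 192, 165 and 168 CPM in WT and 169, 168 and 178 CPM in *lin-40*(*yth27*). *nuo-6* had a log2 fold change of −0.41 with an SE of 0.12 on EV (adjusted p = 0.171, edgeR, BH). *sdhd-1*, the other membrane anchor of complex II, gave 239, 215 and 204 CPM in WT and 153, 168 and 164 CPM in *lin-40*(*yth27*) without overlap (log2 fold change −0.44, adjusted p = 0.171, edgeR, BH). *asg-2*, the major gene for the g subunit of complex V, gave 343, 291 and 302 CPM against 223, 249 and 228 CPM without overlap (log2 fold change −0.42, adjusted p = 0.192, edgeR, BH).

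F45H10.2, the UQCRQ subunit of complex III, gave 103, 94.4 and 102 CPM in WT and 67.3, 82.4 and 77.4 CPM in *lin-40*(*yth27*) on EV without overlap (log2 fold change −0.40, adjusted p = 0.204, edgeR, BH). *ndua-13*, an accessory subunit of complex I, gave 241, 238 and 238 CPM against 185, 192 and 198 CPM, also without overlap (log2 fold change −0.32, adjusted p = 0.241, edgeR, BH). *vha-10*, the G subunit of the V1 stator, gave 400.0, 388 and 431 CPM against 317, 329 and 337 CPM (log2 fold change −0.31). The medians by class were −0.30 in complex I, −0.42 in complex II, −0.32 in complex III, and −0.28 in both complex V and the vacuolar ATPase. On EV, the vacuolar ATPase thus had a median like that of the mitochondrial complexes.

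On *cco-1* RNAi the members' values lay on either side of 0. The target *cox-5B* gave 143, 144 and 193 CPM in WT and 177, 224 and 257 CPM in *lin-40*(*yth27*), with overlap (log2 fold change 0.46, unadjusted p = 0.0129, edgeR). None of the members was called by edgeR or by DESeq2, against 0.626% of all loci by edgeR and 2.70% by DESeq2. The median was 0.10, against −0.02 over all loci, with 68 of 87 values above 0, against 48.3% of all loci. It had the other sign with library totals (−0.07, 28 values above 0) and when *lin-40*(*yth27*) *cco-1* replicate 3 was left out (−0.05, 26 values above 0), and was −0.01 with the trend in gene length removed. The complex III hinge gene T27E9.2 and R07E4.3 were higher at an unadjusted p under 0.05, against 9.91% of all loci, none was lower, against 5.65%, and DESeq2 gave 1 higher, against 9.03%. *lhpp-1* and *vha-7* lay lower in all *lin-40*(*yth27*) libraries, against 7.34% of all loci, and none lay higher in this way, against 9.85%. The fit without both WT libraries low in sperm transcripts gave a median of 0.18. There 56 of 62 mitochondrial values and 17 of 21 of the vacuolar ATPase lay above 0, against 51.4% of all loci. No member was called in that fit (lowest adjusted p = 0.0748, edgeR, BH), against 1.87% of all loci. R07E4.3, assigned to no complex, gave 35.8, 36.6 and 35.5 CPM on EV and 34.9, 26.1 and 31.4 CPM under *cco-1* RNAi in WT, and 25.3, 35.1 and 30.0 CPM against 31.3, 40.9 and 69.3 CPM in *lin-40*(*yth27*), where 1 library was far above the others. C14B9.10, also unassigned, gave 76.3, 135 and 108 CPM on EV and 116, 132 and 206 CPM under *cco-1* RNAi in *lin-40*(*yth27*), with overlap.

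Several subunits are coded by more than one gene, and the levels per kilobase of exon show how the genes share it. Within each set the major gene stayed the major one in every library. *asb-2* made up 87.7% to 89.6% of the b subunit in the group means. The V1 B subunit came to 98.1% to 99.4% from *vha-12* over the 12 libraries, with the rest from *spe-5*, whose known role is in sperm. The main genes *sdha-1*, *ucr-2.1*, *asb-2*, *asg-2*, *vha-12* and *vha-15* lie on the X chromosome in the reference annotation, as does *ucr-2.2*, and their other partners lie on autosomes. The main genes for the c and a subunits of V0 and for the ε subunit, *vha-2*, *vha-6* and *hpo-18*, are autosomal. X-linked genes are known to be largely silent in the worm germ line, and *asb-1* is known as the germline form of the b subunit. The 9 members on the X had medians of −0.16 in WT and 0.38 in *lin-40*(*yth27*) upon *cco-1* RNAi, and the 78 tested autosomal members −0.11 and 0.30, against −0.07 and −0.06 over all tested loci on the X and 0.08 and −0.03 over those on autosomes.

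For the a subunit of V0, the balance between the genes was read in the same way. *vha-6* made up 80.4%, 76.1% and 74.6% of the 4 a genes in WT on EV and 83.8%, 81.5% and 78.7% under *cco-1* RNAi, with overlap. In *lin-40*(*yth27*) it made up 76.5%, 74.5% and 74.7% on EV and 78.8%, 81.6% and 83.6% under *cco-1* RNAi, without overlap. The share of *unc-32* was 9.65%, 10.8% and 11.4% in *lin-40*(*yth27*) on EV and 7.77%, 7.49% and 7.04% under *cco-1* RNAi, also without overlap, and in WT 7.35%, 11.1% and 10.5% against 5.54%, 7.77% and 8.24%, with overlap. *ucr-2.3* made up 6.64%, 8.84% and 9.14% of core 2 in *lin-40*(*yth27*) on EV and 6.45%, 5.78% and 5.34% under *cco-1* RNAi, without overlap. In WT its share was 5.91%, 8.07% and 7.54% against 3.59%, 6.45% and 6.53%, with overlap. These shares of the level per kilobase do not depend on the scaling. They were not tested, and with 3 libraries against 3 no two-sided exact permutation test could reach 0.05.

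**Figure D5:**
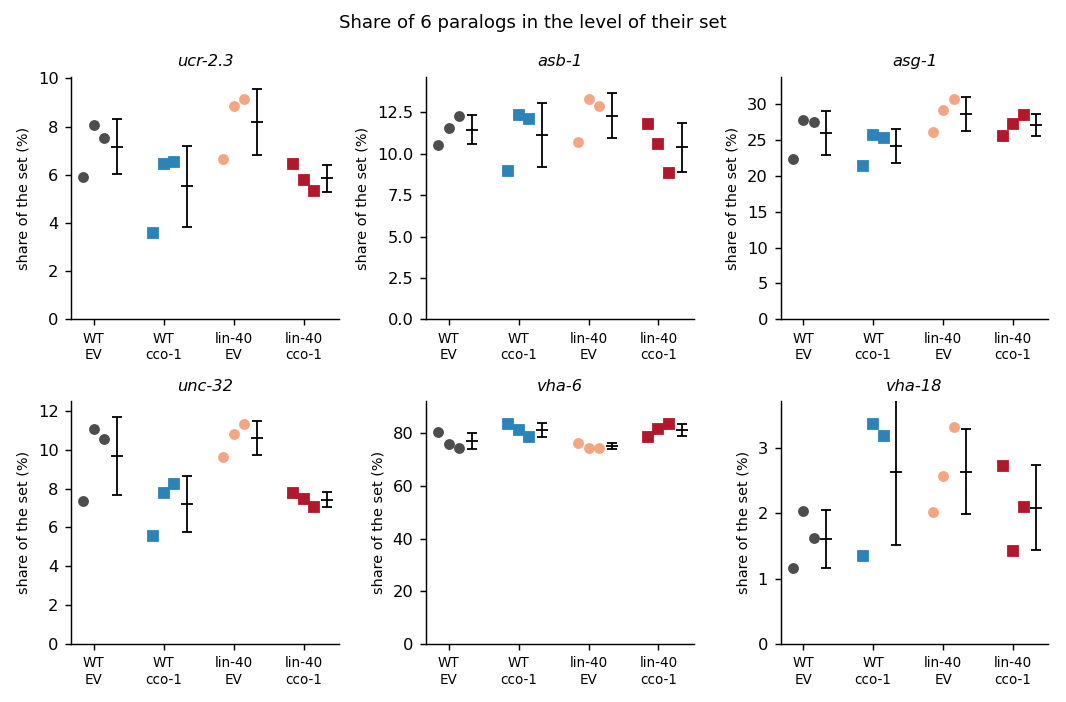
Share of 6 paralogs in the summed level per kilobase of their set, in percent, in the 12 libraries; points are libraries, and the bar with whiskers is the mean and SD of 3. In *lin-40*(*yth27*) *vha-6* lies at 78.8% to 83.6% of the V0 a genes under *cco-1* RNAi against 74.5% to 76.5% on EV, while *unc-32* and *ucr-2.3* lie lower under *cco-1* RNAi without overlap. In WT the groups overlap for these genes, but their shares move the same way within each pair of libraries with the same number.

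The balance between the classes can also be read without scaling. The vacuolar ATPase took 25.4%, 24.8% and 24.9% of the members' counts in WT on EV and 24.5%, 23.7% and 22.6% under *cco-1* RNAi. In *lin-40*(*yth27*) it took 25.2%, 24.7% and 25.3% on EV and 24.2%, 23.6% and 20.7% under *cco-1* RNAi. Its share was lower in all *cco-1* libraries than in all EV libraries within either genotype. The share of the mitochondrial complexes was higher to the same degree, from 73.4% to 74.0% in the EV libraries and from 74.3% to 78.1% in the *cco-1* libraries. Most of that was complex V, with 47.6% to 48.6% on EV and 48.4% to 52.6% under *cco-1* RNAi, where the ranges overlap. The upper end is *lin-40*(*yth27*) *cco-1* replicate 3, which also has the lowest share of the vacuolar ATPase, 20.7%, and in the other *lin-40*(*yth27*) libraries under *cco-1* RNAi complex V took 48.8% and 49.6%.

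Other genes of the pathway, from lists outside the members, were compared with them. The 12 genes of the mitochondrial genome had medians of −0.33 in WT and 0.57 in *lin-40*(*yth27*) upon *cco-1* RNAi. Called higher by edgeR were 0 and 1 of them, against 323 and 123 of the 14867 loci. Poly(A) selection limits how mitochondrial transcripts are read. The 11 *cox-* genes, the target included, had medians of −0.11 and 0.42. In WT 1 of them, the target, was called lower, against 606 of the 14867 loci. In *lin-40*(*yth27*) 1 was called in each direction, against 123 loci higher and 50 lower. Of 20 partner genes (ubiquinone synthesis, assembly factors, electron and nucleotide carriers, further subunits), 19 were tested. In WT 323 of the 14867 loci were called higher, among them 3 partner genes. These were *coq-1* (0.81, adjusted p = 0.00597, edgeR, BH) and *coq-8* (0.51, adjusted p = 0.0466, edgeR, BH), which act in ubiquinone synthesis, and *nuaf-1* (0.57, adjusted p = 0.0318, edgeR, BH), an assembly factor of complex I. In *lin-40*(*yth27*) *coq-1* rose (0.69, adjusted p = 0.0347, edgeR, BH), and none of the 19 was called in the other comparisons or lower. *vha-20*, a further accessory subunit of the vacuolar ATPase, had a log2 fold change of −0.40 in WT (adjusted p = 0.119, edgeR, BH).

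Markers of cell types moved with some of these values. All 5 genes of a hypodermis and cuticle list had a log2 fold change below 0 upon *cco-1* RNAi in WT, with a median of −1.17. Of them 2 were called lower, against 606 of the 14867 loci. Their summed level was 3007 to 3748 CPM on EV and 1745 to 2389 CPM under *cco-1* RNAi. In *lin-40*(*yth27*) it was 2636 to 2715 CPM on EV and 2280 to 3149 CPM under *cco-1* RNAi. The 6 genes of an intestine list summed to 3810 to 5378 CPM in WT on EV, 3098 to 4914 CPM in WT under *cco-1* RNAi, 3072 to 3638 CPM in *lin-40*(*yth27*) on EV and 3142 to 4240 CPM in *lin-40*(*yth27*) under *cco-1* RNAi. The sums of 6 body wall muscle genes were 11583 to 18091, 10004 to 13799, 11378 to 14340 and 8714 to 15224 CPM in the same order, and those of 7 neuronal genes 477 to 583, 505 to 656, 482 to 612 and 572 to 776 CPM. The 8 germline genes summed to 882 to 993, 682 to 1050, 817 to 1013 and 837 to 892 CPM. No marker of these lists had 0 counts over the 12 libraries, and the part of cell type composition in the members' values was not tested.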

How the data were processed

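RNA was measured in whole L4 worms of 4 groups with 3 libraries each. Per the methods, the authors selected poly(A) RNA, sequenced both ends, trimmed reads with SeqPrep and Sickle, aligned them with TopHat and quantified genes with RSEM. Not given in the sources used here are the build of the genome, its annotation and the version of RSEM. The deposited values were read to be expected counts of RSEM that carry no normalization, because most are whole numbers and library totals differ. The methods do not state the unit. They were rounded to whole numbers. 0 columns belonged to other samples. Locations, exon lengths and neighbours come from the Ensembl annotation of WBcel235.

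Members were found by gene identifier under the study's OXPHOS heading, and the mitochondrial-encoded and *cox-* genes were left out. Members, classes and lists were chosen with earlier results of these data known. The genes named are, in each class, the 2 members with the lowest unadjusted p in 4 of the comparisons, those of the paralog sets, and those with the highest and lowest level per kilobase. Some members are not reported here by name. Other members that are named were chosen after their values were seen.

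A quasi-likelihood model in edgeR was fitted to all 12 libraries, after filterByExpr and TMM scaling (R 4.3.3, edgeR 4.0.16, limma 3.58.1). The p-values were adjusted by Benjamini-Hochberg (BH) over the 14867 loci, with a threshold of 0.05, and unadjusted p-values are named as such. Log2 CPM used a prior count of 2. Plots were made with Python 3.11.15 and matplotlib 3.10.9. The fit was tested on simulated data. The common dispersion of 0.0679 corresponds to a coefficient of biological variation of 26.1%, and replicates differed by more than sampling noise.

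When each library's deviation from its group mean was taken, EV and *cco-1* libraries of the same number correlated in WT (0.723, 0.588 and 0.288 across loci) and did not in *lin-40*(*yth27*) (−0.324, −0.192 and −0.113), so the title numbers were taken to pair the libraries within WT. The EV libraries of the genotypes also correlated by title number (0.467, 0.278 and 0.169) and were taken to be paired, while the *cco-1* libraries of the genotypes did not. By short-name number the EV libraries gave −0.426 and 0.169, so this pairing rests on the title numbers alone. The alternatives were median-of-ratios scaling or library totals, no filter or at least 10 CPM in 3 libraries, DESeq2 1.42.0, the 6 libraries of a comparison alone, replicate blocks by title or short-name number, and each library left out. Removal of a length trend (a spline of 4 degrees of freedom per library) and a fit without both WT libraries numbered 1 were added after the data were seen.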

Additional observations from a re-analysis of the deposited data

Results flagged for a closer look

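For 5 members, all libraries on *cco-1* RNAi lay below all EV libraries in WT and above them in *lin-40*(*yth27*), which 0.525% of all loci did. The interaction, the log2 fold change in *lin-40*(*yth27*) minus that in WT, was 0.55 for *nuo-6* of complex I, 0.50 for F45H10.2 of complex III, 0.46 for R04F11.2 (subunit e) and 0.51 for R53.4 (subunit f) of complex V, and 0.32 for *vha-9* of the vacuolar ATPase. None passed after adjustment in edgeR, where the lowest adjusted p among them was 0.394, that of *nuo-6*. The interactions of *nuo-6* and F45H10.2 lay above 0 in every alternative, with the lowest values, 0.25 and 0.20, when library totals replaced TMM. The interactions of the other 3 passed in none of the alternatives, and their values there are not given. The adjusted p of F45H10.2 was 0.0446 (edgeR, BH) with a block by short-name number. Whether that block pairs the *lin-40*(*yth27*) libraries is uncertain, since the check gave correlations of 0.290 and −0.113.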

How the results depend on the processing

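Of 1200 values of 56 results for named members under alternatives, 1190 kept their side of the threshold and 10 passed where they had not. No member was called in the reported fit, so none could lose a call. In 12 of the values that passed in neither fit, the sign differed. When library totals replaced TMM, the medians of the members in WT, in *lin-40*(*yth27*), of the interaction, and of the genotypes on EV and on *cco-1* RNAi were 0.017, 0.14, 0.11, −0.15 and −0.067, while those of all loci moved to 0.19, −0.18, −0.31, 0.16 and −0.16, so that relative to all loci they were −0.18, 0.31, 0.42, −0.31 and 0.10. DESeq2 called 2 members on EV between the genotypes, *vha-9* and *nuo-6*. Leaving out each library gave medians of −0.20 to −0.07 in WT, 0.16 to 0.41 in *lin-40*(*yth27*), 0.28 to 0.53 for the interaction, −0.35 to −0.24 between the genotypes on EV and −0.055 to 0.19 on *cco-1* RNAi, with 0 to 0 members called. The lower ends in *lin-40*(*yth27*), of the interaction and on *cco-1* RNAi came without *lin-40*(*yth27*) *cco-1* replicate 3. Over the same fits, the members at an unadjusted p under 0.05 numbered 1 to 13 lower in WT, against 9.03% to 12.8% of all loci. In *lin-40*(*yth27*) 1 to 53 were higher, against 4.38% to 9.46% of all loci. They numbered 3 to 56 above 0 in the interaction, against 3.83% to 11.2% of all loci, and 9 to 54 lower on EV, against 4.98% to 9.33%. With the trend in gene length removed, the medians were −0.16, 0.20, 0.40, −0.41 and −0.01.

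With a replicate block by title number, 1 member was called in WT (*ucr-2.3*), and the block changed no call elsewhere. A block by short-name number called 1 member in WT, 6 in *lin-40*(*yth27*) and 10 in the interaction, among 2366, 375 and 1023 of all loci. In *lin-40*(*yth27*) the correlation was 0.290 for short-name number 2 and −0.113 for number 4. The first is like the 0.288 of title number 3 in WT, which was taken as paired, and the second is below 0. Only these numbers occur on both kinds of bacteria in that genotype, so its other libraries have no partner by short name. Whether this block pairs the *lin-40*(*yth27*) libraries is thus uncertain. The members called in *lin-40*(*yth27*) include R07E4.3 and C14B9.10.

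Reads of short genes such as R05D3.6 (165 bases) and T27E9.2 (228 bases) are limited by the size selection of 200 to 300 bp. Some members overlap a neighbour, *nuo-3* by 783 bases and *vha-2* by 219, and neighbouring reads cannot be told apart without strand.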
